A study of Mus musculus with 2 samples.

Results

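Pan-neuronal cytoskeleton and Elavl genes were followed across every annotated cell type of E11.5 mouse embryos. They are 10 genes chosen by symbol from the 21937 gene features of the deposited matrices, each of which matched 1 feature: Tubb3, Stmn2, Dcx and Map2, which encode tubulin or proteins that bind tubulin or microtubules, the neurofilament genes Nefl and Nefm, the growth cone gene Gap43, and the RNA-binding protein genes Elavl2, Elavl3 and Elavl4. The library held 4 suspensions of dissociated embryos captured together in droplets. The founders F0_8 and F0_9 were each 1 embryo grown from a fertilized egg that had received mRNA of the transposase mPBase and donor DNA. F1_1 came from 1 embryo of the following generation. F1_mix pooled cells of 2 other F1 embryos as an artificial mosaic and counts here as 1 sample. All 4 carried EGFP linked to a DNA barcode, inserted with the piggyBac transposon and driven by CAG, a promoter active in most tissues, and no suspension without the transgene was used here. The study lists B6J for both parents of the injected eggs, and its methods state that the sex of fetal-stage embryos was left undetermined. The mRNA in each cell was counted as unique molecular identifiers (UMIs, 1 per captured transcript), and the cell type of each cell was taken from the annotation of the authors.

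When a neural progenitor leaves the cell cycle it assembles the microtubules and neurofilaments that carry an axon, and the genes of these structures are widely used as markers of neurons. Tubulin beta-3 is the neuronal beta-tubulin, stathmin-2 destabilizes microtubules in growing neurites, doublecortin stabilizes them in migrating neurons, and MAP2 is the microtubule-associated protein of dendrites. The Elavl proteins (Hu proteins) bind AU-rich RNA, steer the stability and splicing of neuronal transcripts and appear early in neuronal differentiation, whereas neurofilaments accumulate as axons grow.

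The 4 suspensions gave 16052917 to 19160116 gene UMIs from 1310 to 1599 cells each, 5678 cells in all, with 10880 to 13267 UMIs in the median cell. No cell barcode was shared between suspensions (0 of 6006). The cells fell into 16 annotated types, of which 4 (Midgut, Foregut, Hepatocyte and Endodermal Progenitor) are termed shallow, with a median depth under that of all cells by more than a factor of 3. CNS Neuron held 532 cells (110 to 151 per suspension, 10633.5 UMIs outside mitochondrial genes in the median cell), Neuroectoderm/Glia 502 cells (79 to 164, 11127), Neuronal Progenitor 597 cells (13165) and Midgut 333 cells (733). Levels are UMIs per 10000 UMIs outside mitochondrial genes, summed over the cells of a type in a suspension, and are given as mean ± SD over the 4 suspensions. Where 4 values are listed they stand in a fixed order, founder F0_8 first, founder F0_9 second, then F1_1, then F1_mix. The cell types are clusters built from these same genes, so differences between types are described without a p-value. A gene was called higher in a type when its lowest suspension there lay above its highest suspension in the other type.

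The promoters shown here belong to the member that was most widely detected in CNS Neuron (Tubb3) and to the members that were higher there than in Neuroectoderm/Glia (Elavl3 and Elavl4). They are the 250 bases before a RefSeq transcript start on GRCm38.p6, written 5′ to 3′ on the strand of the gene. Capitals mark the E-boxes CAGCTG and CATCTG only. The latter reads CAGATG when it lies on the opposite strand. Apart from CATATG, other E-box variants such as CACCTG were not searched and stay in lower case. E-boxes are short motifs to which proneural basic helix-loop-helix factors can bind.
Tubb3, chr8:123411303-123411552, plus strand: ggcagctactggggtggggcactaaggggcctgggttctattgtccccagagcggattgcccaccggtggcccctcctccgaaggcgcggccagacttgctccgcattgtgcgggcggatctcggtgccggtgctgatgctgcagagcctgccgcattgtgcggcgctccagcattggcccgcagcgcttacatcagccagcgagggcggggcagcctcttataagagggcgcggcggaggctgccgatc
Elavl3, chr9:22052024-22052273, minus strand: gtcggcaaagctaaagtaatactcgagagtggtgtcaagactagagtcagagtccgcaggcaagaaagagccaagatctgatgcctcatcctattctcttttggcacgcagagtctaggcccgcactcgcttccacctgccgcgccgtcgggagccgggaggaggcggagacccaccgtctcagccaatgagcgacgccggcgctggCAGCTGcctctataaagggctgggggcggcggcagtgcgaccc
Elavl4, chr4:110287528-110287777, minus strand: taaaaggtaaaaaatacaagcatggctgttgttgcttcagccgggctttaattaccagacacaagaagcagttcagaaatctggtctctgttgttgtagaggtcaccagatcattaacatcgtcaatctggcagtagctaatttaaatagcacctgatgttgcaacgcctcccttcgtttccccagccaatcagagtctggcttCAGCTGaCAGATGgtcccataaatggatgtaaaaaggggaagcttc
The Elavl4 window precedes a start inside the annotated gene. It was chosen from 4 Elavl4 windows because it holds both marked E-boxes. The window at the annotated start of the gene holds 0 matches to any motif searched. A promoter was at hand for 6 of the 10 members (Tubb3, Dcx, Map2, Elavl2, Elavl3 and Elavl4), with 15 windows in all, several of which overlap. CAGCTG stood in 3 of these 15 windows, of which 2 overlap in Elavl4, against 13.1% of 32544 RefSeq promoters of the same length. CATCTG, searched on both strands, stood in 3 of 15 against 14.4%, all 3 of them in Elavl4. The third E-box searched, CATATG, stood in 0 of 15 against 3.42%. Of the RE1 element, to which the neuronal gene repressor REST binds, the left part TTCAGCACC was in 0 of 15 (0.301% of all) and the right part GGACAG in 2 of 15 (18.8%), 1 window each of Map2 and Elavl2. The counts describe these letters in these windows and nothing about binding.

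The joint level of the 10 genes, the sum of their levels, was highest in Neuroectoderm/Glia and not in CNS Neuron. It was 108, 122, 161 and 143 in Neuroectoderm/Glia (134 ± 23.4, n = 4), and 93.6, 87.6, 95.3 and 98.7 in CNS Neuron (93.8 ± 4.66). Every Neuroectoderm/Glia suspension lay above every CNS Neuron suspension, and the spread between suspensions was wider in Neuroectoderm/Glia. Midgut followed with 54.2 ± 6.56, Endodermal Progenitor with 17.7 ± 1.97, Foregut with 11.7 ± 1.14 and Neuronal Progenitor with 10.0 ± 1.61. The first 4 types of this order did not overlap the next one, while Foregut overlapped Neuronal Progenitor. From Hepatocyte (5.40 ± 0.516) through Ependymal Cell, Gut Mesenchyme/Amniotic Mesoderm, Epithelial Cell, Myoblast/Cardiomyocyte, Mesodermal Progenitor and Chondrocyte to Hematoendothelial Progenitor/Endothelium (1.54 ± 0.409) each type overlapped the next. Erythroblast (0.375 ± 0.299) and Erythrocyte (0.316 ± 0.227), red blood cells that should lack these transcripts, stood below all others and overlapped each other. In F0_9, 1 cell held 79 of the 115 member UMIs of Erythroblast and 1 cell 20 of the 32 of Erythrocyte, and without F0_9 the means were 0.229 and 0.213. In the mixed library a small level can come from free RNA, so these red cell values are 1 measure of background. Droplets outside the suspensions, described with the shallow types, are another and gave higher levels. The plot of levels by type shows the order gene by gene.

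In the deep types outside CNS Neuron, Neuroectoderm/Glia, Neuronal Progenitor and the red cells, Map2 in Ependymal Cell had the highest mean of any member (1.01 ± 0.192, n = 4). Ependymal Cell is named for the lining cells of the ventricles. Map2 stood at 0.053 ± 0.036 in Hematoendothelial Progenitor/Endothelium. Tubb3 was also highest in Ependymal Cell among these types (0.835 ± 0.679) and lowest in Hematoendothelial Progenitor/Endothelium (0.115 ± 0.073). The SD of Tubb3 in Ependymal Cell was close to its mean, and F0_8 held 88 of the 153 Tubb3 UMIs counted in that type. Gap43 had another order, highest in Hematoendothelial Progenitor/Endothelium (0.746 ± 0.408) and lowest in Epithelial Cell (0.0718 ± 0.052). Nefl and Nefm reached 0.242 ± 0.453 in Ependymal Cell and 0.557 ± 0.828 in Chondrocyte, with an SD above the mean in both cases. Each mean rested mainly on 1 suspension, which stood at 0.921 for Nefl and 1.79 for Nefm.

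**Figure D1:**
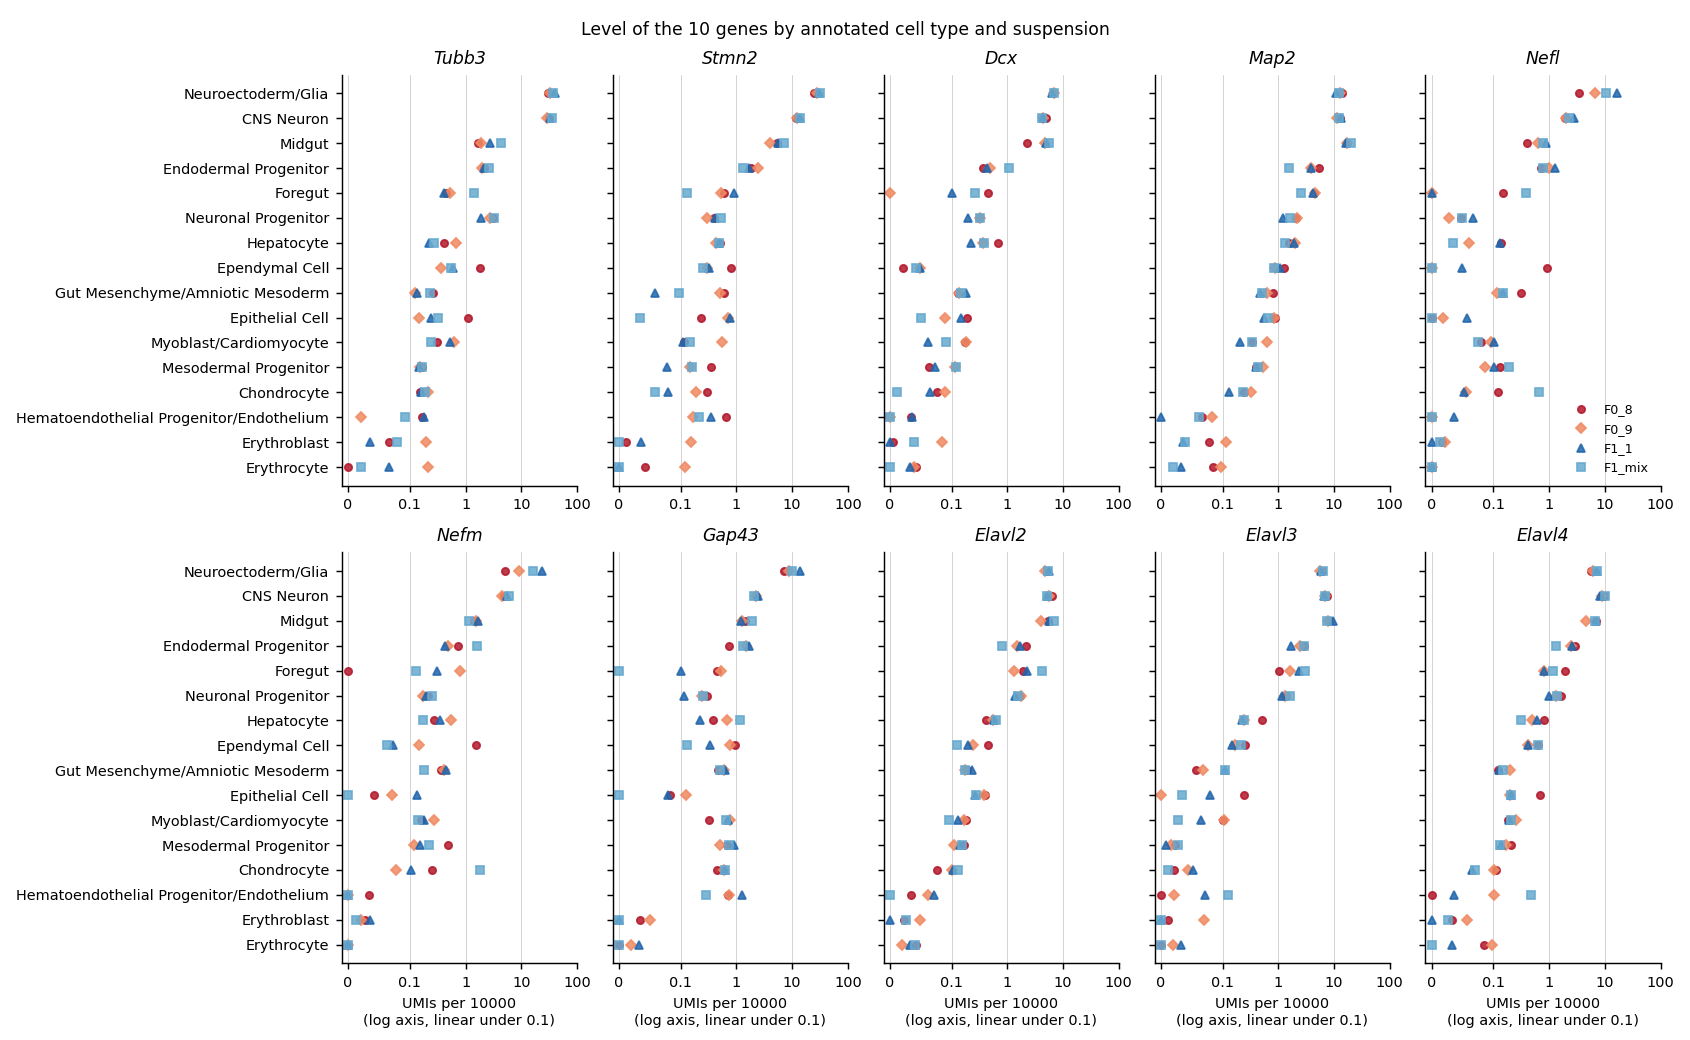
Level of each of the 10 genes in the 16 annotated cell types, in UMIs per 10000 outside mitochondrial genes (x axis, log scale above 0.1 and linear below). Each point is 1 suspension, and the types are ordered by the joint level. Neuroectoderm/Glia and CNS Neuron stand to the right of every type but Midgut in each panel, and the Midgut points of Tubb3 lie far to the left of both.

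All 10 genes were higher in CNS Neuron than in Neuronal Progenitor, the annotated progenitor type, where 21.2% of 13342 measured genes were higher by the same rule. The median log2 difference of the members was 3.19, against -0.02 over all genes. The pooled ratio was 45.2 for Nefl, 30.9 for Stmn2, 24.6 for Nefm, 15.6 for Dcx and 11.9 for Tubb3. It was 10.0 for Gap43, 7.08 for Map2, 6.995 for Elavl4, 5.10 for Elavl3 and 3.52 for Elavl2. The 3 RNA-binding genes had the smallest ratios. In Neuronal Progenitor Elavl2 stood at 1.59, Elavl3 at 1.38 and Elavl4 at 1.34, while Nefl, the light chain of neurofilaments, stood at 0.0481. Against Neuronal Progenitor, Neuroectoderm/Glia was also higher in 10 of 10 members (25.8% of 13427 genes), with pooled ratios from 3.28 (Elavl2) to 168 (Nefl).

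Between CNS Neuron and Neuroectoderm/Glia the members differed in both directions. Of the 10, 2 were higher in CNS Neuron (14.9% of 12977 genes were), Elavl3 and Elavl4, a share near that of all genes. Another 4 were lower (16.1% of genes were), Stmn2, Dcx, Nefl and Gap43, and 4 overlapped, Tubb3, Map2, Nefm and Elavl2. The median log2 difference, CNS Neuron over Neuroectoderm/Glia, was -0.33 over the members and 0.0019 over all genes. These counts and medians are a description of clusters.

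Stmn2 (chr3:8509527-8561604) was the member whose difference varied least between suspensions. Its level was 11.8, 11.97, 13.8 and 13.7 in CNS Neuron, and 24.4, 27.7, 30.8 and 31.1 in Neuroectoderm/Glia. Every Neuroectoderm/Glia value was far above every CNS Neuron value, and the log2 difference was -1.15 ± 0.07 (SD, n = 4). Dcx (chrX:143855842-143933396) stood at 4.27 to 4.86 in CNS Neuron and 6.42 to 6.93 in Neuroectoderm/Glia, a log2 difference of -0.58 ± 0.12 (SD, n = 4) with no overlap.

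Gap43 (chr16:42248552-42340651), which encodes a membrane protein of growth cones, had the largest difference. It stood at 2.24, 2.20, 2.47 and 2.10 in CNS Neuron, and at 7.12, 8.89, 14.1 and 9.97 in Neuroectoderm/Glia. The lowest value of Neuroectoderm/Glia exceeded the highest of CNS Neuron, the pooled ratio was 4.22, and the log2 difference was -2.11 ± 0.35 (SD, n = 4).

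The neurofilament genes Nefl (chr14:68083863-68089095) and Nefm (chr14:68119545-68125004), neighbours on chromosome 14, differed in size and spread. Nefl gave 1.91, 2.01, 2.76 and 2.27 in CNS Neuron and 3.46, 6.76, 16.6 and 10.7 in Neuroectoderm/Glia. The 2 types did not overlap for Nefl (log2 -1.86 ± 0.75, SD, n = 4). Nefm gave 4.81, 4.44, 5.51 and 5.94 in CNS Neuron and 5.17, 9.08, 23.7 and 16.2 in Neuroectoderm/Glia. Within each suspension Nefm was lower in CNS Neuron, but F0_8 of Neuroectoderm/Glia lay inside the range of CNS Neuron, so that Nefm counted as overlapping (log2 -1.17 ± 0.84, SD, n = 4). Without F0_8 it did not overlap.

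Tubb3 (chr8:123411553-123422015) and Map2 (chr1:66175202-66442583) did not separate the types. Tubb3 stood at 31.8, 29.5, 32.8 and 35.9 in CNS Neuron and 30.6, 33.0, 39.8 and 37.5 in Neuroectoderm/Glia (log2 -0.11 ± 0.14, SD, n = 4). Map2 stood at 11.3 to 13.3 and 10.8 to 14.1 (log2 -0.01 ± 0.23, SD, n = 4).

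The Elavl genes were the only members with a positive mean difference. Elavl4 (chr4:110203737-110351939) stood at 9.81, 9.06, 8.17 and 10.0 in CNS Neuron and at 5.57, 6.13, 7.32 and 7.2 in Neuroectoderm/Glia. The ranges did not overlap, though F1_1 of both types came close, and the log2 difference was 0.50 ± 0.27 (SD, n = 4). Elavl3 (chr9:22015005-22052146) stood at 6.74 to 7.57 against 5.52 to 6.46, a log2 difference of 0.25 ± 0.12 (SD, n = 4). Elavl2 (chr4:91211533-91400108) overlapped, at 5.20 to 6.21 against 4.83 to 5.54 (log2 0.09 ± 0.17, SD, n = 4). The plot of these differences places Elavl3 and Elavl4 on one side of 0 and Stmn2, Dcx, Nefl, Nefm and Gap43 on the other in every suspension, with Elavl2, Tubb3 and Map2 on both.

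**Figure D2:**
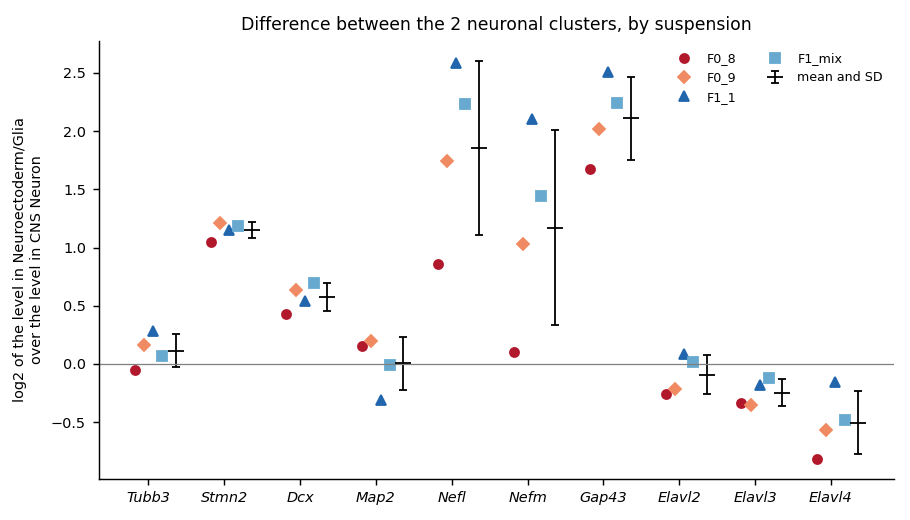
Log2 of the level in Neuroectoderm/Glia over the level in CNS Neuron (y axis) for the 10 genes, 1 point per suspension, with the mean and SD in black. Points of Stmn2, Dcx, Nefl, Nefm and Gap43 lie above 0 and those of Elavl3 and Elavl4 below 0 in all 4 suspensions, while those of Tubb3, Map2 and Elavl2 fall on both sides.

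The name Neuroectoderm/Glia was checked against marker genes of progenitors and glia. Sox2 stood there at 0.234, Fabp7 at 0.146 and Vim at 2.64 UMIs per 10000, against 4.28, 14.7 and 20.5 in Neuronal Progenitor. Of the 5 measured genes of the neural crest and peripheral glia list, 2 were lower in Neuroectoderm/Glia than in Neuronal Progenitor (Sox10, at 0.0017, and Fabp7), 2 overlapped (among them Erbb3, at 0.0034) and 1 was higher (Foxd3, a neural crest transcription factor, at 0.387 against 0.0325). All 12 progenitor genes of a fixed list were lower in Neuroectoderm/Glia than in Neuronal Progenitor, whose cells they mark (29.8% of 13427 genes were). These progenitor levels go against the name, and the label is kept only as that of the cluster. By contrast, all 22 related neuronal cytoskeleton genes were higher in Neuroectoderm/Glia than in Neuronal Progenitor (25.8% of 13427 genes were).

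Related genes of the neuronal cytoskeleton showed the same direction as Stmn2 and Gap43. Of 22, 21 were lower in CNS Neuron than in Neuroectoderm/Glia, 0 were higher and Nefh overlapped. Over all 12977 measured genes 16.1% were lower and 14.9% higher, which are the shares to set beside each list below. Mapt, which encodes the axonal protein tau, stood at 0.452 against 5.93, the neuronal intermediate filament gene Ina at 4.27 against 18.5, and the tubulin gene Tuba1a at 63.7 against 106.5. Of 8 genes of synaptic vesicles and release 6 were lower in CNS Neuron and 2 overlapped, with Syt1, the calcium sensor of release, at 2.85 against 6.80. The 12 other RNA-binding and splicing genes were mixed, with 4 higher, 4 lower and 4 overlapping. Among them Srrm4, a neuronal splicing regulator, stood at 8.70 in CNS Neuron and 3.09 in Neuroectoderm/Glia, and Rbfox1, another splicing regulator, at 1.27 and 8.11. The 9 neurogenic commitment genes (Neurog1, Neurog2, Neurod1, Neurod4, Nhlh1, Nhlh2, Btg2, Gadd45g and Dll3) were all higher in CNS Neuron, for example Gadd45g at 5.94 against 0.167. Of the 12 progenitor genes 9 were higher in CNS Neuron and 0 lower. Of the marker lists of red blood cells, mesenchyme, muscle and epithelium, 0 genes were higher or lower between these types, and the red blood cell list summed to 1.26 to 1.48 in CNS Neuron and 1.19 to 1.42 in Neuroectoderm/Glia.

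The share of cells with at least 1 UMI was lower in CNS Neuron than in Neuroectoderm/Glia for Stmn2, Gap43 and the neurofilaments. As found, Stmn2 was detected in 78.4% (95% exact interval 74.6 to 81.8) of CNS Neuron cells and 100% of Neuroectoderm/Glia cells, Gap43 in 45.7% and 84.9%, and Nefl in 30.8% and 61.2%. Tubb3 was detected in 99.6% and 100%, and Elavl3 in 96.6% and 98.8%, so that both types were close to saturation. The share in Erythrocyte cells, the background, was 8.33% for Stmn2 and Tubb3, 3.33% for Gap43 and Elavl3, and 0 of 60 cells for Nefl, which allows a share of up to 5%. Erythrocyte cells were deeper, with a median of 24237.5 UMIs outside mitochondrial genes.

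At an equal depth of 1000 UMIs per cell the pooled shares still differed. Stmn2 was then detected in 52.3% (47.9 to 56.6) of CNS Neuron cells and 87.8% (84.7 to 90.6) of Neuroectoderm/Glia cells, Gap43 in 13.2% and 43.2%, Nefl in 10.9% and 32.5%, and Nefm in 16.7% and 32.5%. The Nefm shares were close to each other in F0_8 (15.9% and 16.5%) and far apart in F1_1 (17.3% and 50.6%). Elavl4 was detected in 52.8% (48.5 to 57.1) and 46.8% (42.4 to 51.3), intervals that overlap, as did those of Elavl2 and Elavl3. In Neuronal Progenitor the share was 20.4% for Tubb3, 13.7% for Map2, 13.6% for Elavl2 and 0.168% for Nefl. The intervals cover counting error only.

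At the same depth the median CNS Neuron cell held UMIs of 4 of the 10 genes, the median Neuroectoderm/Glia cell 5 and the median Neuronal Progenitor cell 1. At least 3 of the genes were found together in 80.5% (76.8 to 83.7) of CNS Neuron cells, in 97.2% of Neuroectoderm/Glia cells and in 8.71% of Neuronal Progenitor cells. In the deep types outside these 3, that share was at most 1.32% (Epithelial Cell), and it was 0 of 60 in Erythrocyte.

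In CNS Neuron the neurofilament genes and Gap43 were concentrated in few cells, and Tubb3 and the Elavl genes were spread over most of them. Among 515 CNS Neuron cells thinned to 5000 UMIs, the top 10% of cells held 75.9% of the Nefl UMIs, 69.5% of the Nefm UMIs and 61.4% of the Gap43 UMIs, but 22.1% of those of Tubb3 and 22.8% of those of Elavl3. The median CNS Neuron cell held 15 UMIs of Tubb3 and 0 of Nefl, and the highest 46 of Nefm. Among 489 Neuroectoderm/Glia cells the top 10% held 56.7% of Nefl, 56.1% of Nefm, 36.3% of Gap43 and 19.8% of Stmn2. Each of these 4 shares was lower than in CNS Neuron, where the top 10% held 32.1% of the Stmn2 UMIs. Gap43 was found there in 77.5% of cells, close to the 81.0% of Elavl2.

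In CNS Neuron and Neuroectoderm/Glia, Nefl and Nefm were largely found in the same cells. Nefm was detected in 82.7% (74.96 to 88.8) of the 127 CNS Neuron cells with Nefl and in 23.5% (19.3 to 28.0) of the 388 without it. In Neuroectoderm/Glia the shares were 86.7% of 249 and 34.2% of 240. Over the cells of either type at equal depth, Nefl and Nefm had the highest correlation of any pair of members (Pearson r 0.763 over 515 CNS Neuron cells, 0.83 over 489 Neuroectoderm/Glia cells), followed by Tubb3 and Stmn2 (0.599 and 0.475). In 588 Neuronal Progenitor cells, where Nefl was found in 13, Nefl and Nefm gave 0.126, and the highest pair was Tubb3 with Dcx (0.45). Map2 had values near or below 0 with the neurofilament and growth cone genes, for example -0.04 with Nefm in CNS Neuron and -0.21 with Gap43 in Neuroectoderm/Glia. These coefficients describe cells that share a library and are given without a test.

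Within CNS Neuron 7 of the 10 members were lower in the cells with most commitment UMIs (9.52% of 10710 genes were), and Nefl, Elavl3 and Elavl4 were not among them. The 133 CNS Neuron cells with the highest summed level of the 9 commitment genes (34.9 or more per 10000) were set beside the 133 with the lowest (12.6 or less), a split chosen after the data were seen. The median depth was 9596 and 9838 UMIs. The 7 members were lower without overlap of the suspensions, 0 were higher and 3 overlapped. The comparison is within 1 annotated type of cells and is given without a test.

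Stmn2 stood at 3.88 in the cells with most commitment UMIs (2.58 to 4.39 over the suspensions) and 15.8 in those with least (13.95 to 18.3). Gap43 stood at 0.364 and 1.84, Nefm at 1.07 and 3.54, Dcx at 2.38 and 5.59, Map2 at 9.85 and 14.2, Elavl2 at 4.58 and 6.39, and Tubb3 at 26.2 and 32.3. The 3 members that overlapped were Nefl (0.481 and 1.91), Elavl3 (6.84 and 6.43) and Elavl4 (8.95 and 7.35). The ratio of least to most was 4.07 for Stmn2 and 1.23 for Tubb3, so Tubb3 transcripts were abundant in both groups while Stmn2 differed widely. When all CNS Neuron cells were divided at the median of that level in place of these outer groups, 3 members were lower without overlap (Stmn2, Dcx and Map2), where 7.33% of 11894 genes were.

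**Figure D3:**
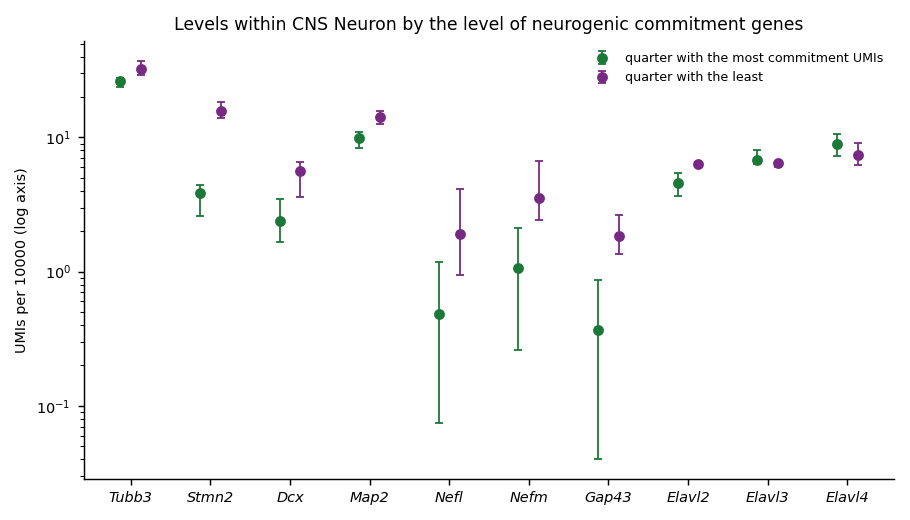
Levels of the 10 genes (y axis, UMIs per 10000, log scale) in the 133 CNS Neuron cells with the most neurogenic commitment UMIs (green) and the 133 with the least (purple), with the cells of 4 suspensions pooled. Bars run from the lowest to the highest suspension, and Stmn2 (3.88 against 15.8) and Gap43 (0.364 against 1.84) are furthest apart while Elavl3 and Elavl4 overlap.

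Of the shallow types, Midgut reached the levels of CNS Neuron in some members and not in others. CNS Neuron was higher than Midgut in 6 of 10 members (22.4% of 12099 genes were), lower in 1 (19.2% of genes were) and overlapped it in 3. The member that was lower was Map2, at 12.6, 11.3, 13.3 and 12.3 in CNS Neuron and 16.9, 17.5, 16.2 and 20.7 in Midgut. The lowest Midgut value lay above the highest CNS Neuron value. Tubb3, by contrast, stood at 1.70, 1.87, 2.74 and 4.40 in Midgut, below 29.5 in every CNS Neuron suspension. Dcx, Elavl2 and Elavl3 overlapped, with pooled Midgut levels of 4.47, 5.85 and 8.39 against 4.48, 5.55 and 7.09.

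The ratio of Midgut to CNS Neuron followed the length of the gene. It was 1.47 for Map2 (267 kb), 1.05 for Elavl2 (189 kb), 0.716 for Elavl4 (148 kb), 0.675 for Gap43 (92.1 kb), 0.998 for Dcx (77.6 kb) and 0.462 for Stmn2 (52.1 kb). It was 0.310 for Nefl (5.23 kb), 0.273 for Nefm (5.46 kb) and 0.0909 for Tubb3 (10.5 kb), with Elavl3 (37.1 kb, 1.18) standing above the other short genes. Over the 10 members Spearman's rho of length and ratio was 0.733 and Pearson's r of their logarithms 0.781. All genes with a length and 10 or more UMIs in both types gave a rho of 0.661 (5770 genes), so the relation was not particular to the neuronal genes. For the other shallow types over CNS Neuron, the 10 members gave a rho of 0.624 (Foregut), 0.745 (Hepatocyte) and 0.139 (Endodermal Progenitor). The points of each relation share 1 pair of types, and no p is given. The plot of ratio by gene length shows the members.

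**Figure D4:**
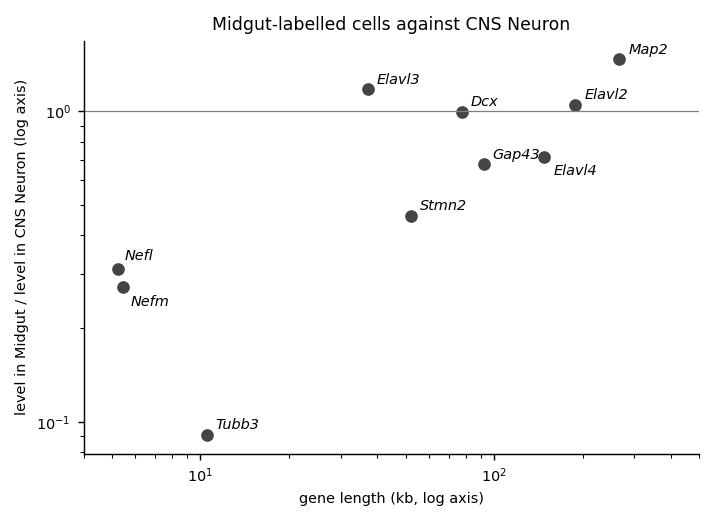
Ratio of the pooled level in Midgut to that in CNS Neuron (y axis, log scale) by the length of the gene on GRCm38.p6 (x axis, kb, log scale) for the 10 genes. The line marks a ratio of 1, and the ratios run from 0.0909 for Tubb3 to 1.47 for Map2.

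Midgut cells had a median mitochondrial share of 27.7% of gene UMIs, against 2.10% in CNS Neuron, and a median depth of 733 UMIs. The epithelial genes Epcam, Krt8, Krt18 and Cdh1 summed to 0.110 to 0.524 in Midgut, the 9 red blood cell genes to 5.55 to 11.2, the 6 mesenchyme genes to 1.25 to 3.80 (0.235 to 0.304 in CNS Neuron, with 3 of 6 higher in Midgut without overlap) and the 9 commitment genes to 2.50 to 5.27, against 21.5 to 28.1 for the commitment genes in CNS Neuron. Their part in these values was not tested. Among neuronal lists, the 8 synaptic vesicle genes summed to 10.6 to 14.8 in Midgut, against 7.35 to 9.16 in CNS Neuron. The 12 other RNA-binding and splicing genes summed to 70.0 to 88.3 against 29.3 to 32.6. The 6 sensory and autonomic neuron genes overlapped (4.45 to 8.885 against 4.18 to 6.19). The 22 related cytoskeleton genes were lower in Midgut (78.35 to 109.9 against 211.5 to 224). When the 92 Midgut cells that reached 1000 UMIs were thinned to that depth (241 cells were left out), Map2 was detected in 71.7% (61.4 to 80.6), Elavl3 in 52.2% (41.5 to 62.7) and Tubb3 in 25% (16.6 to 35.1). As found, without thinning, the shares were 63.4%, 44.4% and 19.5%. At least 3 members were found together in 73.9% of these cells, near the 80.5% of CNS Neuron.

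Droplets outside the suspensions were examined as another measure of background, and whether they hold only free RNA was not tested. In barcodes of 100 to 300 gene UMIs, Map2 stood at 8.14, Elavl3 at 2.96 and Tubb3 at 4.36, and in barcodes of 1 to 100 at 2.83, 1.41 and 7.37. The Map2 and Elavl3 levels of Midgut (18.1 and 8.39 with the suspensions pooled) lay above both, whereas the Tubb3 level of Midgut (2.96) lay below both. It also lay above the 0.0906 of Erythrocyte, so that the 2 measures of background differ for Tubb3, and its detection in Midgut is not separated from the droplets. For Stmn2 the droplets gave 3.53 and 4.49 against 5.92 in Midgut, for Nefl 0.650 and 0.899 against 0.691, and for Nefm 1.57 and 1.26 against 1.41, so both neurofilaments in Midgut were likewise within the background range. Gap43 stood at 1.51 and 1.48 in the droplets and 1.51 in Midgut. The Midgut ratios of Tubb3, Nefl, Nefm and Gap43 in the relation with gene length thus rest on levels below those of the droplets for Tubb3 and close to them for the other three.

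The 3 other shallow types stood below CNS Neuron in all 10 members, where 21.7% of genes were for Foregut (12170), 23.2% for Hepatocyte (12760) and 21.7% for Endodermal Progenitor (12142). The pooled level of Map2 was 3.82 in Foregut, 1.66 in Hepatocyte and 3.48 in Endodermal Progenitor. That of Tubb3 was 0.715, 0.366 and 2.29 in the same order. All 3 Map2 values were under the 8.14 of droplets of 100 to 300 UMIs, while those of Foregut and Endodermal Progenitor were above the 2.83 of droplets of 1 to 100 UMIs. Against the former, background was not separated from expression in any of the 3. After thinning, at least 3 members were found in 5.77% of 104 Foregut cells and 1.49% of 336 Hepatocyte cells. Only 5 Endodermal Progenitor cells reached that depth. In Hepatocyte the liver genes Alb, Afp, Apoa1 and Ttr summed to 0.0439 to 0.068 and the 6 mesenchyme genes to 20.6 to 28.5. These levels go against the name Hepatocyte, which is kept only as that of the cluster.

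Founders were compared with the F1 generation to see whether the members differed between generations. The test was edgeR's quasi-likelihood test on counts summed per suspension, 2 suspensions against 2, in each of 13 cell types with 20 or more cells per suspension, with Benjamini-Hochberg adjustment over all genes of a type. Of 96 pairs of member and type tested, 2 passed an adjusted p of 0.05, against 0.752% of 99241 pairs over all genes, and 31 had an unadjusted p under 0.05, against 10.2% of all pairs. The number of pairs of member and type called depended on the fit. It was 2 with DESeq2 (0.221% of all pairs), 2 with mitochondrial genes left out (0.753%), 1 in cells under 5% mitochondrial (0.698%) and 19 without a filter on low counts (1.67%). It was 4 without F0_8 (0.481%), 13 without F0_9 (1.48%), 9 without F1_1 (1.34%) and 8 without F1_mix (1.44%).

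The larger of the 2 was Stmn2 in Gut Mesenchyme/Amniotic Mesoderm, a type in which it is rare. Its level was 0.601 and 0.497 in the founders, and 0.0590 and 0.0970 in the F1 suspensions. Both founders were above both F1 suspensions, and the log2 difference was 2.74 (SE 0.24, edgeR adjusted p = 0.00164). Stmn2 was detected in 39 of 259 cells of F0_8, 22 of 171 of F0_9, 8 of 97 of F1_1 and 17 of 147 of F1_mix. Cells with 5 or more Stmn2 UMIs numbered 12, 5, 0 and 0, so the shares of cells with any UMI were closer than the levels. The top cell held 20.8% of the Stmn2 UMIs in F0_8 and 25.7% in F0_9, and without it the levels were 0.478 and 0.372, still above both F1 values. Droplets of 100 to 300 UMIs held Stmn2 at 3.53, above all 4 levels, and the part of free RNA or of single neurons among these cells was not tested. The call held under all 8 alternatives tried, with an adjusted p of at most 0.0127.

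The other was Nefm in Neuroectoderm/Glia, which was lower in the founders. With the levels given above, both founders (5.17 and 9.08) lay below both F1 suspensions (23.7 and 16.2), and the log2 difference was -1.49 (SE 0.25, edgeR adjusted p = 0.0425). This call was lost with DESeq2 (adjusted p = 0.130), with cells under 5% mitochondrial UMIs (0.0525), without F1_1 (0.136) and without F1_mix (0.0847), with log2 differences of -1.48, -1.49, -1.19 and -1.75 in that order. It was kept with mitochondrial genes left out (edgeR adjusted p = 0.0453) and without F0_8 (log2 -1.14) or F0_9 (log2 -1.95). It was also kept without a filter on low counts (edgeR adjusted p = 1.12e-87). That p lay far below the one of the main fit although the log2 difference (-1.48) was nearly the same. In F0_8, 1 cell held 32.3% of the Nefm UMIs, and the level without it was 3.55.

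No other member passed in Neuroectoderm/Glia, where Map2 had the opposite sign (log2 0.22, SE 0.08, edgeR adjusted p = 0.276) and the rest the sign of Nefm, with Dcx near 0. Nefl gave a log2 difference of -1.43 (SE 0.29, edgeR adjusted p = 0.0721), Gap43 of -0.59 (SE 0.16, adjusted p = 0.145) and Tubb3 of -0.29 (SE 0.06, adjusted p = 0.0738). With DESeq2 Gap43 passed (adjusted p = 0.0385), as it did without a filter on low counts and without F0_9. Nefl passed without that filter and without either founder, Tubb3 without the filter and without F0_9, and Map2 without the filter. Stmn2 passed without the filter and without F0_9, and Elavl4 without the filter. In CNS Neuron 0 of 10 members passed by edgeR, where 77 of 9916 genes did. An unadjusted p under 0.05 was found for 4 members there (906 of 9916 genes) and for 7 in Neuroectoderm/Glia (1348 of 9901). In CNS Neuron Nefm was at -0.33 (SE 0.08, edgeR adjusted p = 0.117) and Nefl at -0.37 (SE 0.11, adjusted p = 0.250). With DESeq2 the CNS Neuron count was also 0, where 44 of 15357 genes passed. Without a filter on low counts Nefm, Stmn2 and Tubb3 passed there by edgeR (adjusted p = 0.012, 0.0304 and 0.0223), where 356 of 15357 genes did. Tubb3 also passed without F1_1 (log2 -0.24) and Nefl without F1_mix (log2 -0.51).

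Whether the founder difference itself differed between the 2 types was tested with an interaction term, added after the data were seen. Of 10 members 0 passed, where 13 of 10513 genes did (0.124%) and 6 of 10 members had an unadjusted p under 0.05 (778 of all genes, 7.4%). The difference of the log2 founder values, Neuroectoderm/Glia minus CNS Neuron, was -1.06 for Nefl (SE 0.24, edgeR adjusted p = 0.211) and -1.16 for Nefm (SE 0.27, adjusted p = 0.236). That of Map2 had the opposite sign (0.35, SE 0.09, edgeR adjusted p = 0.334). The plot of founders and F1 suspensions shows both types.

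**Figure D5:**
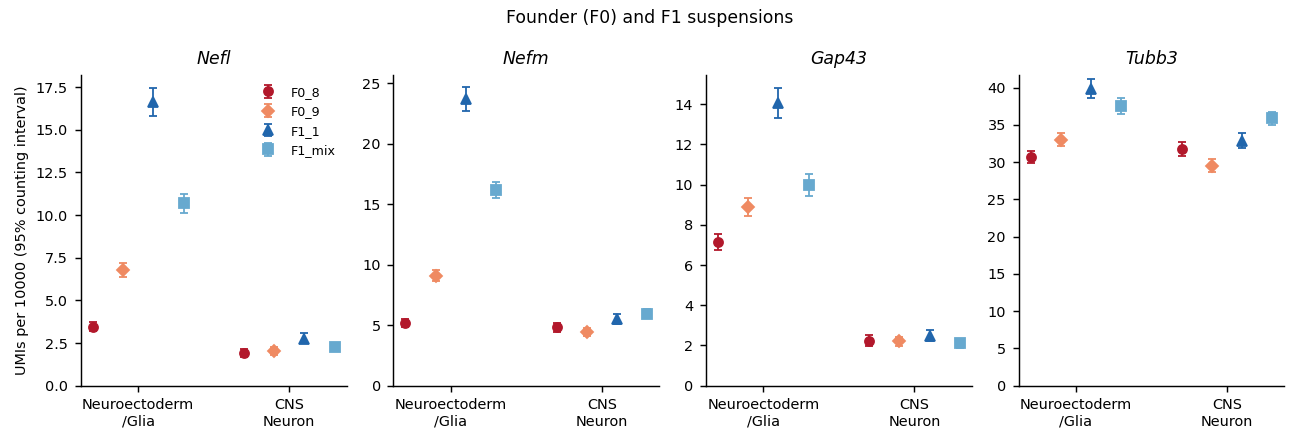
Levels of Nefl, Nefm, Gap43 and Tubb3 (y axis, UMIs per 10000, with exact 95% counting intervals) in Neuroectoderm/Glia and CNS Neuron, 1 point per suspension, founders in red and orange and F1 suspensions in dark and light blue. In Neuroectoderm/Glia the F1 points lie above the founder points in all 4 panels, from 5.17 and 9.08 to 23.7 and 16.2 for Nefm, and in CNS Neuron they lie closer together.

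Other genes differed between the generations in Neuroectoderm/Glia as well. Isl1, a transcription factor of motor, sensory and sympathetic neurons, stood at 0.584, 0.392, 1.80 and 1.58 (log2 -1.79, SE 0.18, edgeR adjusted p = 0.0056). Of 69 genes of the related and marker lists tested there, 4 fell in the founders and 2 rose, where 1.15% of 9901 genes of this type were called in either direction. Beside Isl1, those that fell were Vim, an intermediate filament gene (log2 -1.18, SE 0.14, edgeR adjusted p = 0.0119), and the commitment genes Nhlh2 (log2 -0.82, adjusted p = 0.0192) and Dll3 (log2 -0.97, adjusted p = 0.0425). Those that rose were Rbfox1 (log2 1.08, SE 0.11, edgeR adjusted p = 0.0054) and the progenitor gene Sox2 (log2 1.68, SE 0.27, adjusted p = 0.0353). The part of these shifts in the Nefm difference was not tested.

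Over the 16 types the members followed each other closely. Pearson's r of log2(level + 0.1), with the suspensions pooled, ran from 0.618 (Gap43 with Elavl2) to 0.982 (Elavl2 with Elavl3) over pairs of members, and Nefl with Nefm reached 0.979. Gap43 was least like the mean of the 10 (r = 0.811). Its pooled level was 0.729 in Mesodermal Progenitor and 0.535 in Gut Mesenchyme/Amniotic Mesoderm, above the 0.224 of Neuronal Progenitor. Among the 8296 genes that reached 0.5 UMIs per 10000 in some type, the 10 most like that mean were Nsg2 (r = 0.979), Hoxb5 (0.977), Crmp1 (0.970), Rab6b (0.969), Pcsk2, Scg3 (0.968), Atl1 (0.963), Syp (0.962), Celf3 (0.961) and 9330159F19Rik (0.961). Crmp1 is a microtubule-linked protein of growing axons, and Syp and Scg3 belong to synaptic and secretory vesicles. Of the 10, 7 had their highest level in Neuroectoderm/Glia, with Crmp1 at 7.92 there and 4.32 in CNS Neuron. The points share 1 library, and the coefficients are a description over 16 types.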

How the data were processed

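A 3′ droplet library of 4 suspensions, each labelled with a multiplexing oligo, was sequenced from E11.5 embryos from which placenta and yolk sac had been removed, dissociated with trypsin and sorted to remove debris. The authors deposited raw UMI counts per gene and cell, aligned by Cell Ranger to GRCm38 (mm10) with EGFP added. The release in the file headers is 7.2.0, and the methods name this and another. Cell types came from the authors' deposited annotation, made with Seurat after doublet removal with DoubletFinder, and no further doublet caller was run. SoupX is named for ambient RNA, but the counts used here are uncorrected. Suspensions were grouped as founders and F1 from the series description.

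Members and related lists were chosen with earlier results of these data known. Named genes were all members, genes of the fixed lists, and the 10 non-members most like the mean member profile over types, among genes reaching 0.5 per 10000. A gene was measured in a comparison from 10 UMIs. Intervals are exact Poisson or Clopper-Pearson 95% intervals and cover counting error only, and the limit for a count of 0 stands for 3 counts. Thinning drew a fixed number of UMIs per cell and left out shallower cells. Founders were tested with edgeR 4.0.16 (TMM, filterByExpr) in R 4.3.3, with DESeq2 1.42.0 as an alternative. The count test was tested on simulated data with 200 changed genes. Nothing says that suspensions of a generation came from separate litters, so p-values measure only the spread between these suspensions. Lengths, positions and promoters came from RefSeq tables of GRCm38.p6, with a length for 96.7% of features. The other choices were alternative scales, limits on mitochondrial share, thinning depths and leaving out each suspension.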

Additional observations from a re-analysis of the deposited data

Results flagged for a closer look

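Of 52 groups of 4 suspensions examined, 4 held a suspension that stood apart from the other 3 by Dixon's criterion, a criterion that chance alone meets in about 1 in 20 groups. Dcx in Neuronal Progenitor stood at 0.197 in F1_1, below 0.309 to 0.327 in the others. Elavl4 in Midgut stood at 4.68 in F0_9, the Midgut suspension with the fewest cells (45), against 6.695 to 7.07. The joint level of the 10 genes in Chondrocyte was 3.76 in F1_mix, against 1.43 to 1.79, and 1 cell of F1_mix held 100 of the 319 member UMIs (31.4%), from 2 members. The joint level in Ependymal Cell was 8.61 in F0_8, against 2.85 to 3.33. There, 1 cell held 185 of 411 member UMIs (45.0%), including all 44 Nefl UMIs and all 72 Nefm UMIs. Without it the level of Nefl fell from 0.921 to 0 and that of Nefm from 1.51 to 0. Whether such cells are doublets or neurons within these types was not tested.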

How the results depend on the processing

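Of the values that answer a comparison, 62 stayed close to the reported value under the alternatives and 24 moved. Of single-gene values 210 counted as unchanged, 17 passed the threshold that had not, 4 no longer passed and 7 changed sign. For differences between types, unchanged means a shift under 1 SD over the suspensions. For founder differences it means the same sign and the same side of an adjusted p of 0.05. These single-gene values are the differences between types and the founder differences in Neuroectoderm/Glia and CNS Neuron and of Stmn2 in Gut Mesenchyme/Amniotic Mesoderm, and calls gained in other types are counted only in the totals of founder calls. The joint level of CNS Neuron, Neuroectoderm/Glia and Neuronal Progenitor stayed within 1 SD under every alternative, and Midgut moved from 54.2 to 40.6 when mitochondrial UMIs were counted in the total. The median share of cells with a UMI over members depends on depth by construction. From 87.4% in CNS Neuron it went to 43.98%, 25.4% and 63.99% after thinning to 1000, 500 and 2000 UMIs and to 79.9% with 2 or more UMIs required. From 96.9% in Neuroectoderm/Glia it went to 46.3%, 27.0%, 67.4% and 91.8% in the same order, and from 37.4% in Neuronal Progenitor to 7.12%, 3.27%, 13.9% and 19.2%. From 28.4% in Midgut it went to 38.6% at 1000 UMIs, 55.9% at 2000 UMIs, 9.46% with 2 or more UMIs and 62.5% in cells under 5% mitochondrial.

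Founder calls among members numbered 2 (0.752% of all pairs of gene and type were called), against 19 without a filter on low counts (1.67% of all pairs), 1 in cells under 5% mitochondrial (0.698%) and 4 to 13 when a suspension was left out (0.481% to 1.48%), where a lone suspension is assumed to vary like the pair of the other arm. The cause was not tested. Small differences changed sign: Dcx in Neuroectoderm/Glia (-0.01) gave 0.0045 with DESeq2, 0.0052 without a filter and -0.051 to 0.049 over the suspensions left out, Gap43 in CNS Neuron -0.18 to 0.059, and Elavl4 in CNS Neuron -0.11 to 0.19. The members lower in CNS Neuron cells with most commitment UMIs numbered 3 instead of 7 when all cells were divided at the median. With the depth of Midgut, Foregut and Endodermal Progenitor, levels of rare members rest on few UMIs. No paired analysis was possible because the labels give no replicate numbers that founders and F1 share.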
